A study of Homo sapiens with 52 samples.

Results

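Protocadherins are cell-adhesion proteins of the cadherin superfamily. The loci described here are the alpha, beta and gamma clusters (PCDHA/B/G), taken as 1 locus, and 9 solitary genes, PCDH1, PCDH7, PCDH8, PCDH9, PCDH10, PCDH15, PCDH17, PCDH18 and PCDH20. Their hg19 positions were given as megabase intervals, and every 100 kb bin that overlapped an interval was taken as a gene bin. This gave 43 gene bins, and 226 bins with 1 Mb added on each side, of the 26584 bins with a value in a file of 30376. All 226 had a value, and the windows of the clusters and PCDH1 share 17 bins.

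Contact with the nuclear lamina was measured by DamID, in which a DNA adenine methyltransferase (Dam) is fused to a protein and marks nearby GATC sites, here with LaminB1 as the partner. The 51 cells analysed were single cells of KBM7, an established human leukaemia line, all from clone 14 with a ploidy of 2N. All had received 0.5 nM Shield1 for 15 h to induce Dam, and were sorted singly from cells that carried both Fucci cell cycle markers, taking the smallest 2%. They form 1 group from 1 clone, with no untreated or unfused Dam sample analysed here. The labels name no separate cultures. The cells were therefore treated as a single sample, SDs describe the spread between cells, and p-values were not computed. The deposited value is the ratio of observed to expected signal (OE), and an OE of 1 or more in a bin counted as contact. At 2N a call does not tell 1 contacted chromosome copy from 2, and RNA levels were not analysed here.

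The clustered genes sit in tandem arrays, and a neuron uses a few of them at a time to give its surface an identity in contacts with other neurons. The solitary genes are spread over several chromosomes, and most are best known from the developing nervous system. By structure, PCDH1, PCDH7 and PCDH9 belong to the delta-1 subgroup and PCDH8, PCDH10, PCDH17 and PCDH18 to delta-2, while PCDH15 is a more distant relative. Genes near the lamina are, as a rule, little transcribed, and such regions are mostly poor in genes.

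The 10 loci covered almost the whole range of lamina contact. In PCDH18, PCDH15 and PCDH20, 88.2% to 96.1% of gene bins were contacted in an average cell, and in PCDH1 and the clusters 0% to 0.735%. PCDH9 (31.4%), PCDH7 (28.2%), PCDH17 (17.6%), PCDH8 (11.8%) and PCDH10 (9.80%) lay between. Over all 43 gene bins the contacted share was 41.0% ± 13.4 (SD, n = 51 cells), beside 31.5% of all pairs of a bin and a cell in the genome. Contact in at least 80% of cells was found in 13 gene bins (30.2%), beside 20.9% of bins in the genome, and 11 of these 13 belong to PCDH15. A further 10 (23.3%) were contacted in at most 5% of cells, beside 46.7% in the genome. Gene bins of 1 locus are neighbours, so these counts rest on 10 loci rather than 43 separate bins.

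Of the 9 pairs of neighbours in the order from PCDH18 down to PCDH1, 1 differed by more than its spread over cells. PCDH20 exceeded PCDH9 by 56.9 points ± 45.8 (SD), with 40 cells higher and 3 lower. PCDH18 exceeded PCDH15 by 3.21 points ± 23.7 (16 cells higher, 2 lower), and PCDH15 exceeded PCDH20 by 4.63 ± 35.2 (6 higher, 14 lower). PCDH9 and PCDH7 differed by 3.14 ± 29.2 (18 and 18), and PCDH8 and PCDH10 by 1.96 ± 38.7 (6 and 9). A locus of 1 gene bin, such as PCDH18 or PCDH20, is at 0% or 100% in each cell, which widens the SD of its pairs. The high 3 were thus set apart from the rest, while their own order was not resolved: after thinning to equal depth PCDH20 stood first, at 90.2%, and PCDH18 last of these 3, at 86.3%. At least 2 and at most 7 of the 10 loci had a contacted bin in any single cell, and most cells had 4 (13 cells), 5 (14) or 6 (12).

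**Figure D1:**
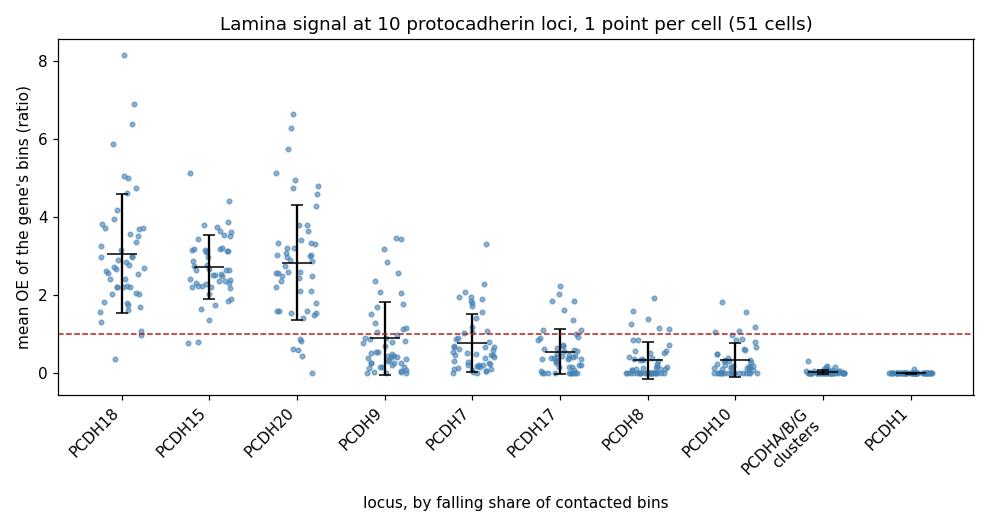
Mean OE of the gene bins of each locus (ratio, linear axis), 1 point per cell for 51 cells; bars give the mean and SD over cells and the dashed line the contact threshold of 1. PCDH18, PCDH15 and PCDH20 have means of 2.72 to 3.06, while no cell exceeds 0.315 at the clusters or 0.107 at PCDH1.

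Depth sets how finely a bin can be read. The ratios hold whole reads, and cells had 50978 to 316463 of them (median 142540). At an OE of 1, a gene bin of median expected size held 1.89 to 2.53 reads in the shallowest cell, cell 9, and 11.8 to 15.8 in the deepest, cell 26, over the 10 loci. The expected number of the 43 gene bins was 231 to 448 (median 320), close to the genome median of 316, and no gene bin lacked reads.

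The clustered protocadherins were almost never at the lamina. RefSeq lists 15 alpha, 16 beta and 22 gamma protein-coding genes there. Their 8 gene bins, on chromosome 5 from 140100001 to 140900000, held 80 reads over all cells, where an OE of 1 in every cell would have given 2806. The mean OE was 0 in the lowest and the median cell and 0.315 in the highest, cell 52, and 31 cells had no read at all. Contact was called in 0.735% ± 3.88 (SD, n = 51) of gene bins, through 2 cells in the bin from 140300001 to 140400000 and 1 cell in the next. The 20 flank bins had no contact call in any of the 51 cells, which allows a share of cells of up to 5.88% for each bin (3 cells of 51), but 4 of them were without a read throughout, so that their depth is not known. The rest of chromosome 5 was contacted in 37.5% ± 5.83 of its bins, and the clusters lay below it in all 51 cells.

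PCDH1, a delta-1 protocadherin known from airway epithelium, lies beyond the same clusters and shared their lack of contact. Its gene bin, from 141200001 to 141300000, was contacted in 0 of 51 cells, with a Wilson 95% interval of 0% to 7.00% that covers counting error over cells only and is wider than the limit of 3 cells of 51. It held 1 read, in cell 23, where an OE of 1 in every cell would have given 338. The 3 contact calls in its 1071 pairs of a flank or gene bin and a cell are those of the clusters, in the shared bins. With flanks of 2 Mb the flank share was 1.96%, against 0.294% with 1 Mb.

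PCDH7, a delta-1 gene of neurons also found in other tissues, began at an edge of lamina contact. The flank at lower coordinates, which precedes the gene on its + strand, was contacted in 89.8% ± 17.9 (SD, n = 51) of its bins. The gene was contacted in 28.2% ± 33.0 and the following flank in 12.7% ± 18.1. Mean OE over the gene ranged from 0 to 3.30 (median 0.515). The preceding flank exceeded the following one in all 51 cells, by 77.1 points ± 22.6.

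The change fell between neighbouring bins. The last flank bin, 30600001 to 30700000 on chromosome 4, was contacted in 39 cells (mean OE 2.04), and the first gene bin, 30700001 to 30800000, in 14 (mean OE 0.724). Contact thus fell by 49.0 points. A change of that size or larger, in either direction, was found at 2.24% of the 26445 pairs of adjacent bins in the genome, whose median change was 1.96 points. The step was picked as the largest in its window, while the 2.24% counts single pairs. It therefore does not tell how rare a window with such a step is. The size of the largest change, picked anew each time, varied. It was -33.3 points after thinning to equal depth, -60.0 in odd-numbered cells and -38.5 in even-numbered ones. Contact was present in the flank bin alone in 26 cells, in both bins in 13 and in the gene bin alone in 1. All 10 bins of the preceding flank were contacted in 28 cells, of which 5 had no contact in any gene bin, so the edge was a fall in frequency rather than a stop in each cell. Of the 39 cells, 9 kept contact without a gap through the third gene bin and 4 through the fifth and last. Within the gene the third bin was contacted most often, in 21 cells, and the last least, in 9. A bin holds 100 kb, so the edge is placed no more finely than that.

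PCDH17, a delta-2 gene with a part in the assembly of synapses, also lay just beyond an edge. Contact covered 41.2% ± 32.7 (SD, n = 51) of the flank before the gene on its + strand, 17.6% ± 34.4 of the 2 gene bins and 3.14% ± 11.0 of the flank after it. The first flank exceeded the second in 41 cells, and the reverse held in 1. The largest change lay 1 bin ahead of the gene. The bin from 58000001 to 58100000 on chromosome 13 was contacted in 31 cells, and that from 58100001 to 58200000 in 7, all of them among the 31. Contact fell by 47.1 points there, and 2.52% of adjacent pairs in the genome changed by as much or more, again counted over single pairs. Mean OE over the gene ranged from 0 to 2.25 (median 0.396), and 10 cells had no read there.

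PCDH8, a delta-2 protocadherin that acts at synapses, lay at the foot of a slope over several bins. Its gene bin, 53400001 to 53500000 on chromosome 13, was contacted in 6 of 51 cells, with OE from 0 to 1.93 (median 0.107). At lower coordinates contact was in 0.98% ± 3.00 (SD, n = 51) of flank bins, and at higher coordinates, upstream of this gene on the - strand, in 73.7% ± 24.8. The upstream flank was higher in all 51 cells. From the gene bin upstream the next 5 bins were contacted in 12, 29, 31, 34 and 45 cells. The largest change, 33.3 points, lay between the bins from 53500001 (12 cells) and 53600001 (29 cells). In the genome 5.66% of adjacent pairs changed by as much or more, again counted over single pairs. The 6 farthest bins were contacted in 88.2% of cases, and of the 34 cells in contact in all 6, 30 were out of contact at the gene. The bins on the low side were thinly covered, with 3 of 10 holding no read in any cell.

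The sequence just before the start of these 3 genes, and of PCDH18 as a gene within constant contact, is shown because a GATC is the site that Dam marks and DpnI cuts when methylated. Each run is the 250 bases upstream of the RefSeq start, 5′ to 3′ on the gene's strand, from GRCh38.p14, a build other than that of the bins, with GATC in capitals.
PCDH7: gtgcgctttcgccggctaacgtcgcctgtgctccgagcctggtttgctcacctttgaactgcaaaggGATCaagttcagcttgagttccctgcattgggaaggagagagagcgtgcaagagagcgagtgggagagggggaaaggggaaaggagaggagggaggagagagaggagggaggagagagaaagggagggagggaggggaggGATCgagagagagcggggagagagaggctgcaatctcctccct
PCDH17: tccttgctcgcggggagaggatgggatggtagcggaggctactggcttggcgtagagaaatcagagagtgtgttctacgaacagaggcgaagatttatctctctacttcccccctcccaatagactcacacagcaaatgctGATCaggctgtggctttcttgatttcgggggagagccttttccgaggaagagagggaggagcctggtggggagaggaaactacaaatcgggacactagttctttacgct
PCDH8: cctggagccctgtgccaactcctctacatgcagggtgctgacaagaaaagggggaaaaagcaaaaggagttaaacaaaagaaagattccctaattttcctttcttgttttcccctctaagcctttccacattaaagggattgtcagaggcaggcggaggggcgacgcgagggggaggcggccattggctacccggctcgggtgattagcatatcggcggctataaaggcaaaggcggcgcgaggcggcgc
PCDH18: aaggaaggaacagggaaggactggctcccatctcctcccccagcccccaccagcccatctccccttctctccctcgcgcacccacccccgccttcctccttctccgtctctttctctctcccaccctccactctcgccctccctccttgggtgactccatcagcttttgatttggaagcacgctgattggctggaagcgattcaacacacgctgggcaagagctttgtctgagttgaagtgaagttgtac
These runs cover chr4:30720119-30720368 (+) for PCDH7, chr13:57631494-57631743 (+) for PCDH17, chr13:52848641-52848890 (-) for PCDH8 and chr4:137532495-137532744 (-) for PCDH18. GATC reads the same on both strands. It was present in 2 places at PCDH7 and 1 at PCDH17 and was not in the windows of PCDH8 and PCDH18, while 35.8% of the table's 35116 promoters hold it in the same 250 bases. A solitary gene's promoter was in the table for 7 of 9 genes, of which 4 hold GATC, and so do 24 of 47 matched cluster genes. CG dinucleotides numbered 10 at PCDH7 and PCDH17, 14 at PCDH8 and 8 at PCDH18, against a median of 11 over all promoters and 6 over the cluster genes.

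**Figure D2:**
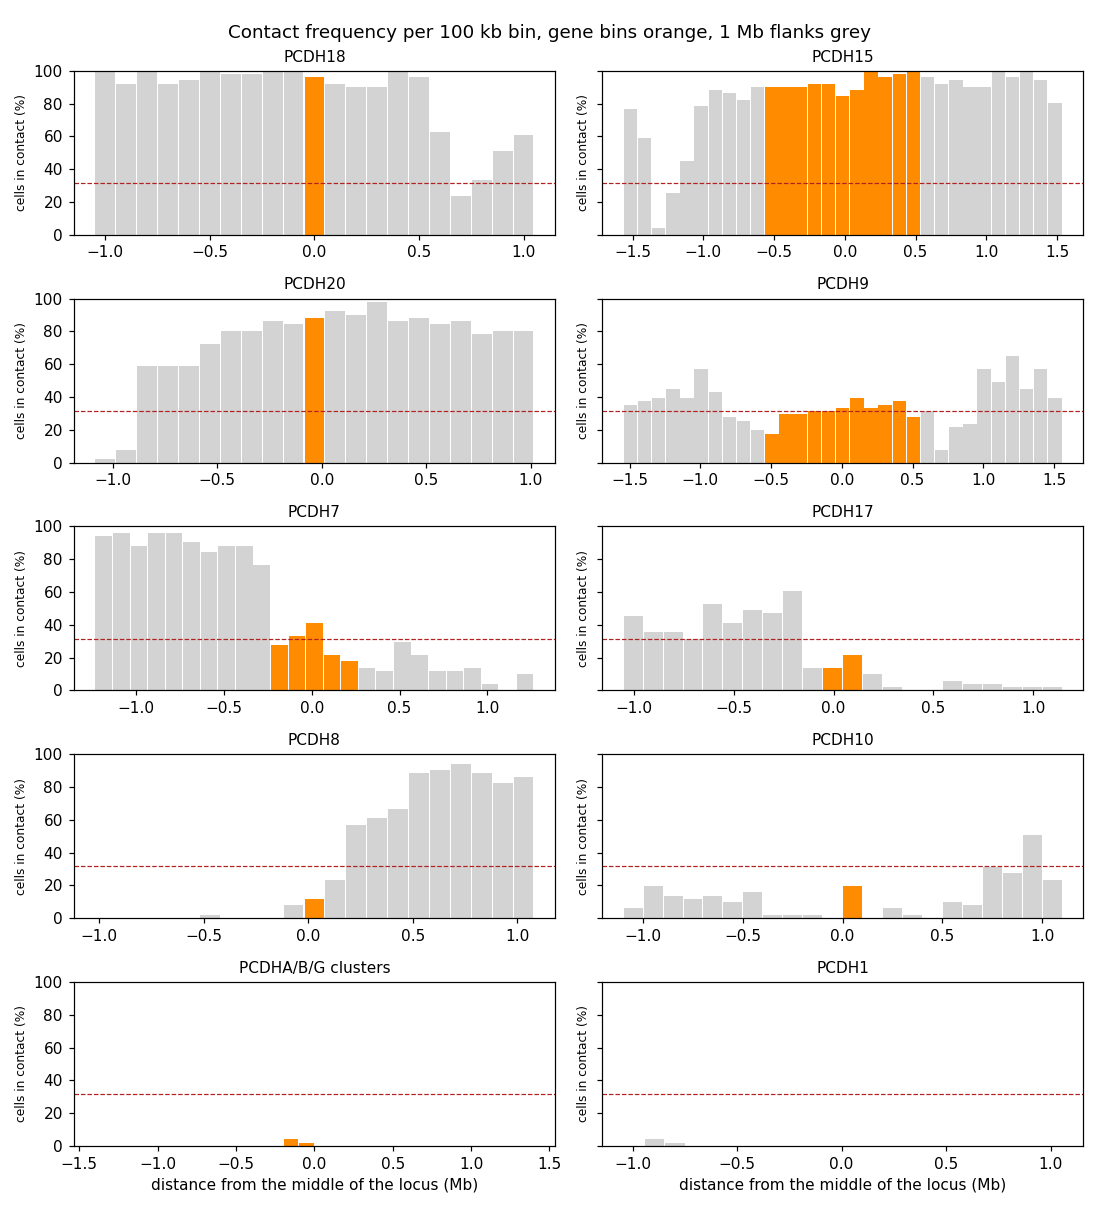
Share of the 51 cells in contact (%) in each 100 kb bin of the 10 windows, against distance from the middle of the locus (Mb), with gene bins orange, flanks grey and the genome's share of 31.5% as a dashed line. PCDH7 and PCDH17 follow a drop in contact, PCDH8 precedes a rise, PCDH18, PCDH15 and PCDH20 lie within contact, and the chromosome 5 loci are close to 0.

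PCDH18, a delta-2 gene, lay deep in a region that nearly every cell contacted. Its gene bin, 138400001 to 138500000 on chromosome 4, was in contact in 49 of 51 cells (96.1%, Wilson 95% interval 86.8% to 98.9%). OE had a median of 2.73, with cell 44 lowest at 0.375 and cell 9 highest at 8.16. The exceptions were cell 10, at an OE of 0.971, just under the threshold, and cell 44, and they held 3 and 2 reads there. A contacted PCDH18 sat in a run of contacted bins of 2.85 Mb ± 1.06 (SD, n = 49 cells). The flank at lower coordinates was contacted in 97.5% ± 5.23 of bins and the other in 70.0% ± 19.6. Contact on that side dipped between the bins from 139000001 (32 cells) and 139100001 (12 cells) and was back at 31 cells in the last flank bin, from 139400001. In RefSeq the nearest protein-coding gene on that side is SLC7A11, a cystine transporter. The gene exceeded its 1 Mb flanks by 12.4 points ± 21.3, but with flanks of 0.5 Mb this was -0.392.

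PCDH20, a solitary gene placed in neither delta subgroup here, was contacted in 45 of 51 cells at its bin from 61900001 to 62000000 on chromosome 13 (88.2%, Wilson 95% interval 76.6% to 94.5%). Its OE was 0 in the lowest cell, cell 41, 2.74 in the median cell and 6.64 in the highest, cell 48. The 6 cells out of contact were cells 9, 14, 29, 32, 41 and 43, with 0 to 6 reads in the bin. In cell 41 no bin of either flank was contacted, and chromosome 13 as a whole was contacted in 10.4% of its bins, against a mean of 33.3% ± 8.83. Cell 9 was the shallowest of all and had 75.0% of the flanks in contact. About 1 Mb below the gene in coordinates, contact rose by 51.0 points between the bins from 61000001 (4 cells) and 61100001 (30 cells).

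PCDH15, whose protein forms part of the tip links of inner ear hair cells, was the longest locus held at the lamina. Its 11 gene bins, from 55500001 to 56600000 on chromosome 10, were contacted in 92.9% ± 15.1 (SD, n = 51), with 27.3% in the lowest cell and 100% in the median and highest. All 51 cells had contact, and 34 had it in every gene bin. The mean OE had a median of 2.65, with cell 42 lowest at 0.772 and cell 9 highest at 5.14. The rest of chromosome 10 was contacted in 27.7% ± 5.89, and PCDH15 was above it in all 51 cells, by 65.1 points ± 12.4. The lowest cells were cell 42 (27.3%) and cell 52 (36.4%), and their chromosome 10 was contacted in 7.57% and 18.4% of bins.

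Contact was slightly less complete towards the low end of PCDH15. The 5 lowest bins were contacted in 91.0% ± 21.7 and the 5 highest in 96.5% ± 9.55, a difference of 5.49 points ± 16.5, within the spread between cells. Contact was called in all 51 cells in the bins from 56200001 and 56500001 and least often, in 43 cells, in that from 56000001. The flank beyond the high end was contacted in 93.3% ± 12.8. The RefSeq gene model is longer than the interval used here, so flank bins may lie within the gene. The low flank, at 63.5% ± 22.1, was broken at 54700001 to 54800000, where 2 cells had contact, against 30 cells in the bin before it. Contact thus fell by 54.9 points, the largest change in the window. Of single adjacent pairs in the genome, 1.52% changed by as much or more.

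PCDH9, a delta-1 gene of the brain, was contacted at an intermediate level along its whole length. Its 11 gene bins, from 66800001 to 67900000 on chromosome 13, were each contacted in 9 to 20 cells, together 31.4% ± 36.3 (SD, n = 51). The rest of the chromosome stood at 33.2% ± 8.60, and the difference of -1.81 points ± 33.9 was within the spread. The level hid wide differences between cells. At the gene 23 cells had no contact, 13 had it in under 50% of bins, 10 in 50% to under 100% and 5 in every bin. Mean OE was 0 in the lowest cell, 0.526 in the median cell and 3.48 in the highest, cell 27. PCDH7 was divided in the same manner, with 22, 17, 8 and 4 cells in these classes. PCDH15, of the same number of bins as PCDH9, had 0, 2, 15 and 34. Flanks of PCDH9 were contacted in 36.9% ± 36.5 and 39.6% ± 29.2.

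PCDH10, a delta-2 gene with a role in axon growth, was rarely contacted, and then in a single bin. The bin from 134000001 to 134100000 on chromosome 4 had no contact in any cell (up to 5.88% allowed by the limit of 3 cells), and the next, to 134200000, was contacted in 10 of 51 cells (Wilson 95% interval 11.0% to 32.5%). OE in this second bin ranged from 0 to 3.24, with a median of 0.259. In all 10 cells the contacted run was 0.1 Mb long, since the bin on its far side was contacted in no cell either. The second bin had an expected number of 265 and the first of 302. At an OE of at least 0.5 the mean run was 0.430 Mb, so the isolation depends on the threshold. The flanks were contacted in 9.61% ± 18.3 and 15.9% ± 19.4, and the rest of chromosome 4 in 43.9% ± 4.94. PCDH10 lay below that rest in 42 cells and above it in 9.

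The side of the gene that touched the lamina more was not shared between loci. Strand was known from the promoter table for 8 loci. Upstream exceeded downstream by more than its SD over cells at PCDH7, PCDH8, PCDH17 (38.0 points ± 31.2) and PCDH15 (29.8 ± 20.2), and fell below it at PCDH18 (-27.5 ± 18.6). At PCDH18 and PCDH15 the difference came largely from bins more than 0.5 Mb away. Within 0.5 Mb of PCDH18, bins were contacted in 46 to 51 cells upstream and in 50 to 51 downstream. Near PCDH15 they were contacted in 46 to 49 cells upstream and in 40 to 46 downstream. The RefSeq model of PCDH15 is longer than the interval used, so flank bins counted here as upstream may lie within that gene. At PCDH9 the difference was 2.75 ± 37.4, and at the clusters and PCDH1 contact was close to 0 on both sides.

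Whether the loci were contacted in the same cells was described for the 7 loci with a contacted share from 5% to 95%. The share of the cell's genome was subtracted first. Over 51 cells, 7 pairs on the same chromosome had a mean Pearson's r of 0.0635 (range -0.106 to 0.227), and 14 pairs on different chromosomes a mean of 0.0681 (-0.170 to 0.638). The 4 genes of chromosome 13 lie 3.65 to 13.9 Mb apart, and PCDH8 and PCDH17 were the most alike pair there (r = 0.227). Stretches of the same widths and distances along chromosome 13 had median correlations of 0.104 to 0.185. For each locus, the most alike other locus was PCDH9 for PCDH7 and PCDH10, PCDH7 for PCDH9, PCDH17 for PCDH8 and PCDH20, and PCDH8 for PCDH17 and PCDH15. The least alike was PCDH10 for PCDH7, PCDH8 and PCDH17, PCDH17 for PCDH10, PCDH15 for PCDH20 and PCDH9, and PCDH20 for PCDH15, at -0.170 to -0.0521. For PCDH8 and PCDH10, r was -0.0521 but Spearman's rho 0.30, so their place rests on Pearson's r. Contact was absent at PCDH8 in 45 cells and at PCDH10 in 41. In such cells the ranks follow the subtracted genome share, so this rho does not describe contact in the same cells.

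**Figure D3:**
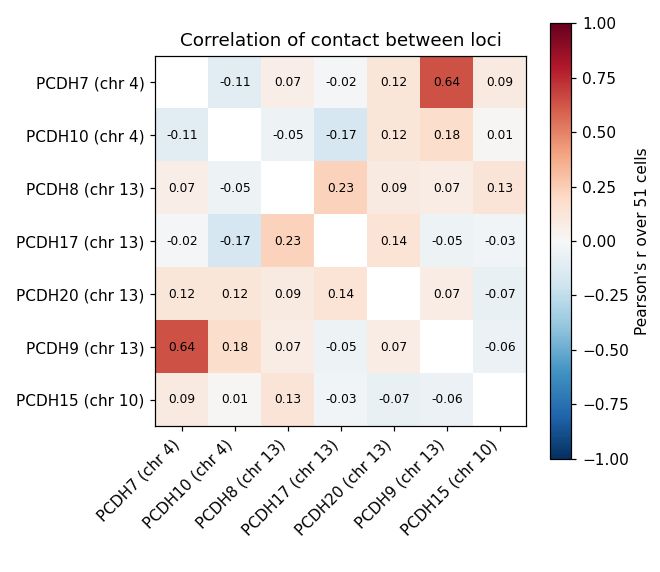
Pearson's r over 51 cells between the contacted shares of 7 loci, after subtraction of the cell's genome share, coloured from -1 to 1, with the chromosome of each locus in its label. PCDH7 on chromosome 4 and PCDH9 on chromosome 13 have an r of 0.64, and all other pairs lie between -0.17 and 0.23.

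PCDH7 and PCDH9, on different chromosomes, had the highest Pearson's r of the 21 pairs, 0.638, with 0.227 next. Their Spearman's rho, 0.497 over 51 cells, was also the highest, and it was 0.558 without subtraction of the genome share. PCDH8 had rhos of 0.433 with PCDH17 and 0.383 with PCDH20, but these are no yardstick. PCDH8 was without contact in 45 cells, where its ranks follow only the subtracted genome share, which enters both loci of a pair. To a lesser extent this also affects the rho of 0.497. PCDH7 was without contact in 22 cells, PCDH9 in 23 and both in 14. A rho without subtraction is given here for this pair only. At least 50% of gene bins were contacted at both genes in 9 cells, at PCDH7 alone in 3, at PCDH9 alone in 6 and at neither in 33. The value was 0.585 without the 2 cells farthest from the median at PCDH7, 0.634 after thinning to equal depth, 0.669 at an OE of at least 2, and 0.710 for mean OE. It was 0.495 in odd-numbered cells (rho 0.236) and 0.739 in even-numbered ones (rho 0.697). The reads of a cell correlated with PCDH7 at 0.230 and with PCDH9 at 0.0574. All these points come from 1 clone, and the correlation is a description with no p-value.

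The flanks differed in this. The flank before PCDH7 correlated with PCDH9 at 0.124 and the flank after it at 0.229. The low flank of PCDH9, at the 3′ side of this gene, correlated with PCDH7 at 0.659 and its high flank at 0.149. Among 11743 bins of other chromosomes contacted in 5% to 95% of cells, the 25 most like PCDH7 included 8 of the 11 gene bins of PCDH9 and 14 of the 31 bins of its window. The most alike single bin lay elsewhere on chromosome 13, from 106800001 to 106900000 (r = 0.675), and the median over bins was 0.00889. In the other direction, 3 of the 5 gene bins of PCDH7 were among the 25 of 12226 bins most like PCDH9, and none of its flank bins. The single bin most like PCDH9 lay on chromosome 1, from 172000001 to 172100000 (r = 0.635). This pair and this listing were singled out after their values were seen. The listing restates the correlation of the pair bin by bin and is no further support for it. Bins of a locus are neighbours and are contacted in runs, so these counts do not rest on separate bins.

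**Figure D4:**
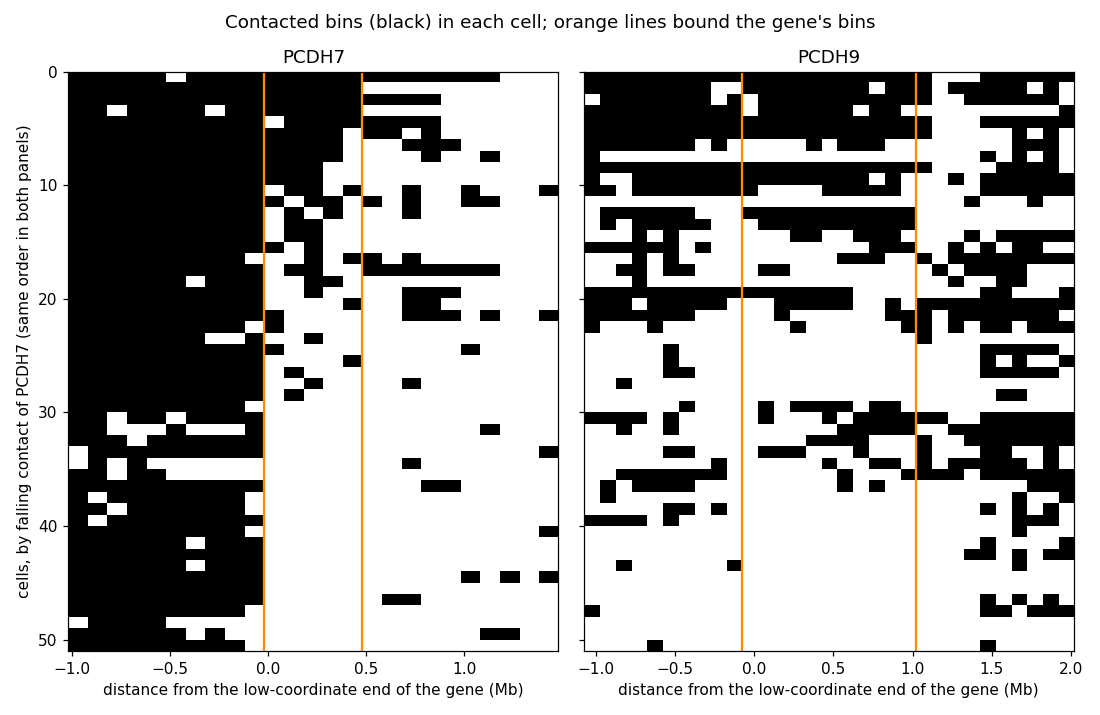
Contact calls (black, OE of at least 1) in the windows of PCDH7 and PCDH9 for 51 cells, in the same order of falling PCDH7 contact in both panels, against distance from the low-coordinate end of the gene (Mb). Flank bins before PCDH7 are contacted in 39 to 49 cells each and its gene bins in 9 to 21, and 9 of the 12 cells with at least 50% of PCDH7 in contact also have at least 50% of PCDH9 in contact.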

How the data were processed

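The authors deposited, per the file headers and labels, 1 column per cell, in which each 100 kb bin has a ratio of observed over expected signal (OE). Cutadapt and Bowtie2 2.1.0 with build hg19 are named in the submitters' processing notes. The origin of the expected value and the treatment of duplicate reads were not given in the sources used here. Of 52 labelled cells, cell 47 was not analysed here. The members and gene lists were chosen with earlier results of these data known.

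Contact in a cell was an OE of at least 1. Reads were recovered from the steps of the ratios, through 1 scale per cell and 1 expected number per bin, and 100% of non-zero values lay within 0.02 of a whole read. The scripts were tested on simulated data. Every member was named, as were bins of largest change and the most and least alike loci. Correlations used the 7 loci contacted in 5% to 95%. This limit, the slope at PCDH8, the thinning, the omission of 5 cells of high background and the 5 centred bins were chosen after seeing the data. Neighbours came from RefSeq (GRCh38.p14), which gave all 9 solitary genes a match. Strands came from the promoter table of the same build, which held 7 of the 9, and other cadherin genes were not placed in the bins. Python 3.11.15, numpy 2.4.6 and pandas 2.3.3 were used.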

Additional observations from a re-analysis of the deposited data

How the results depend on the processing

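Of 684 values under alternatives, 650 stayed within 1 SD over cells. That count does not measure stability. It includes mean OE under other contact thresholds, which cannot change with the threshold. The SD over cells is also wide. The share of PCDH7 (28.2% ± 33.0) counted as unmoved at 44.7% with a threshold of 0.5 and at 11.4% with a threshold of 2. Among the 684, the sign was opposite to the reported one in 22, of which 13 were largest steps and 9 other values. All 9 were of a size below their own SD over cells or pairs when reported. With a contact threshold of 2, the contacted share of PCDH15 was 69.7%, that of all gene bins 26.8%, and 5 gene bins reached 80% of cells, which follows from the higher threshold. With flanks of 2 Mb, PCDH1 differed from its flanks by -1.96 points. The largest step near PCDH15 became a rise, of 33.3 points at a threshold of 2 and of 11.8 with flanks of 0.5 Mb, where the window no longer holds the bin from 54700001 to 54800000. At PCDH20 it became a fall, of -29.4 points at a threshold of 2 and -11.8 with flanks of 0.5 Mb, and at PCDH9 a fall, of -43.1 at a threshold of 0.5, -47.1 with flanks of 2 Mb and -27.5 after thinning. At PCDH10 it became a rise, of 31.4 points with flanks of 2 Mb, 19.6 with 0.5 Mb, 29.4 after thinning and 23.1 in even-numbered cells, at PCDH18 a rise of 9.80 with flanks of 0.5 Mb, and at PCDH1 a fall, of -1.96, after thinning. At PCDH7, PCDH8 and PCDH17 the step kept its sign in every setting run. At the clusters it did so except at a threshold of 2, where the step was 0. The step is chosen anew in each setting, and apart from the shorter flanks the cause was not tested. PCDH18, PCDH15 and PCDH20 were the 3 highest loci under the thresholds of 0.5 and 2, the highest 30% of bins, odd-numbered and even-numbered cells, thinning to 50978 reads, the omission of 5 cells and 5 centred bins. Depth limits the reading of a single bin, since a bin at an OE of 1 held about 2 reads in cell 9.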
